A study of Mus musculus with 9 samples.

Results

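The genes described here encode the proteins of the mitochondrial ribosome in cultured mouse heart muscle cells. They were chosen by name, as the protein-coding genes of the count table whose symbol is Mrpl or Mrps followed by a number. This gave 78 of the 55401 genes in the table, and 77 of the 78 had enough counts to be tested, among 16762 tested genes. By the current ribosome nomenclature 51 of the 78 belong to the large subunit, 26 to the small subunit and 1, Mrps36, to neither. In the same nomenclature 46 have a bacterial counterpart and 31 are found in mitochondria only. The S and L of a symbol do not always give the subunit, since Mrps30 (mL65) and Mrps18a (mL66) are proteins of the large subunit.

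The mitochondrial ribosome is built from rRNAs that the mitochondrial genome encodes and from proteins that are encoded in the nucleus, made in the cytosol and imported. It translates only the mRNAs of the mitochondrial genome, whose products are core subunits of the respiratory chain and of ATP synthase. Heart muscle depends on this chain for most of its ATP, and inherited defects in several of these proteins, Mrpl3, Mrpl44 and Mrps22 among them, cause cardiomyopathy.

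The libraries came from primary neonatal mouse ventricular myocytes (NMVMs) of WT C57BL/6J mice that were 1 day old, with 3 libraries in each of 3 groups. Control cultures stayed in normoxia in DMEM with FBS. Hypoxia cultures were kept for 6 hours in a sealed AnaeroPack chamber in DMEM without glucose and without serum, and hypoxia + rSRGN cultures had recombinant SRGN (serglycin, a secreted proteoglycan) in that medium as well. Oxygen, glucose and serum therefore changed together and cannot be told apart in any comparison with control, and no normoxic group with rSRGN was analysed here. The labels do not say that the libraries of a group came from separate isolations, so the p-values measure only the spread between these libraries.

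Total counts per library were between 16583985 and 22781557. Markers of several cell types moved with the treatment. The markers counted here as lower or higher passed a 1.5-fold change and an edgeR adjusted p under 0.05. Of all tested genes 25.1% were lower and 26.4% higher in hypoxia by these limits. All 20 cardiomyocyte markers examined were lower in hypoxia than in control, and their summed level fell from 61845–74998 to 5249–8246 CPM (counts scaled to library size) and was 10726–11485 CPM in hypoxia + rSRGN. Of 15 fibroblast markers 12 were higher in hypoxia, with sums of 13960–16368 CPM in control, 29292–32536 in hypoxia and 32419–33593 in hypoxia + rSRGN. Of 10 endothelial markers 6 were lower, with a list median of -0.77 on the log2 scale, and 1, Eng, was higher by 1.32 ± 0.07. The summed endothelial levels of 287–313 CPM in control, 508–584 in hypoxia and 589–592 in hypoxia + rSRGN followed Eng, and without it they were 112–144, 105–121 and 116–144 CPM. Of 12 macrophage markers 10 were lower, with a list median of -3.89, and 1, Cx3cr1, was higher by 8.65 ± 0.28. The summed macrophage levels were 235–252, 109–164 and 137–157 CPM with Cx3cr1, and 235–251, 25.5–29.0 and 30.3–35.6 CPM without it. No marker of the 4 lists was at 0 in any group. In bulk libraries, fewer cells of a type and less RNA per cell cannot be told apart, and the part of these cell types in the results below was not tested.

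The promoters of these genes were examined because many respiratory genes share a few factors. RefSeq promoters (GRCm38.p6, 250 bases before to 50 after the annotated start) were matched for 69 of the 78 genes, giving 75 promoters. Each motif was searched on both strands by its exact letters. CCGGAAG, the core bound by GABP and other ETS factors (GABP is also called NRF2), was in 34.7% of these promoters against 8.86% of all 32851 mouse promoters of that length. CGCATGCG, bound by NRF1, was in 9.33% against 1.87%, and ATGGCGG, bound by YY1, in 17.3% against 4.05%. GGGCGG, bound by SP1, was in 52.0% against 35.7%, while TATAAA was in 6.67% against 13.6%. CAAGGTCA (ERR) was in 2.67% against 1.56%, CACGTG (E-box) in 9.33% against 7.15% and TGACGTCA (CRE) in 2.67% against 1.79%. A GABP/ETS match was present in 6 of the 17 genes with a promoter that were called lower in hypoxia, in 1 of 4 called higher and in 18 of 47 not called. In the same order, an NRF1 match was in 0, 1 and 6 genes, a YY1 match in 2, 0 and 10, an SP1 match in 6, 3 and 25, a TATA match in 2, 0 and 3 and a CRE match in 1, 0 and 1. These shares are descriptions, and a match is not evidence that a factor binds.

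The 100 bases just upstream of the start are printed for 6 genes, with the motif letters in capitals. The 6 genes were picked after their values were seen. They show a pair that rose in hypoxia, a pair that fell, the paralog Mrps18a and Mrps21, which had the highest mean level over the 9 libraries. Mrpl17 (minus strand, chr7:105811088-105811187) carries an NRF1 match 10 bases before the start and an SP1 match 87 bases before it. Mrps6 (plus strand, chr16:92058236-92058335) carries SP1 matches 95 and 79 bases before it. Mrpl16 (plus strand, chr19:11770315-11770414) carries a TATA match at 68 and a CRE match at 49 bases. Mrps27 (plus strand, chr13:99344686-99344785) and Mrps18a (plus strand, chr17:46110904-46111003) carry GABP/ETS matches at 48 and 26 bases, and Mrps21 (minus strand, chr3:95871515-95871614) an ERR match at 64 bases.
Mrpl17: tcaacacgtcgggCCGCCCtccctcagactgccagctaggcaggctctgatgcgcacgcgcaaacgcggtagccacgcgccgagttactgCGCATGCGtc
Mrps6: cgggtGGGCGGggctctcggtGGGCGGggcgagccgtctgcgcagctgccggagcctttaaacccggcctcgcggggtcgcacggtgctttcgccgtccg
Mrpl16: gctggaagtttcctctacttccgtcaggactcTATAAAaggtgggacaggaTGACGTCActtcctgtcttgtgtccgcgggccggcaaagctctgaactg
Mrps27: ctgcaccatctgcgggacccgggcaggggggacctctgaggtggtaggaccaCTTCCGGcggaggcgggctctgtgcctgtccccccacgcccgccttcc
Mrps18a: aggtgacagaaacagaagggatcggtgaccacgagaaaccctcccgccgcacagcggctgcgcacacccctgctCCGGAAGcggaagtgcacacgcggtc
Mrps21: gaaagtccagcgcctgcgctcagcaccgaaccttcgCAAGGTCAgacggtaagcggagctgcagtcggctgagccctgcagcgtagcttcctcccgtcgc

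As a family, the mitochondrial ribosomal protein genes took a small and shrinking share of the counts. Their sum was 0.280%, 0.274% and 0.268% of all counts in the 3 control libraries. In hypoxia it was 0.236%, 0.235% and 0.247%, and in hypoxia + rSRGN it was 0.208%, 0.206% and 0.209%. The groups did not overlap, with control highest and hypoxia + rSRGN lowest. The genes for the cytosolic ribosome went the other way in hypoxia, from 2.00–2.05% of counts in control to 5.05–5.79%, and stood at 4.45–4.49% in hypoxia + rSRGN. Nuclear genes for complex I of the respiratory chain fell from 0.507–0.516% to 0.226–0.238% and were at 0.223–0.231% in hypoxia + rSRGN. The shares of the mitochondrial ribosome therefore moved less in hypoxia than those of either comparison family.

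**Figure D1:**
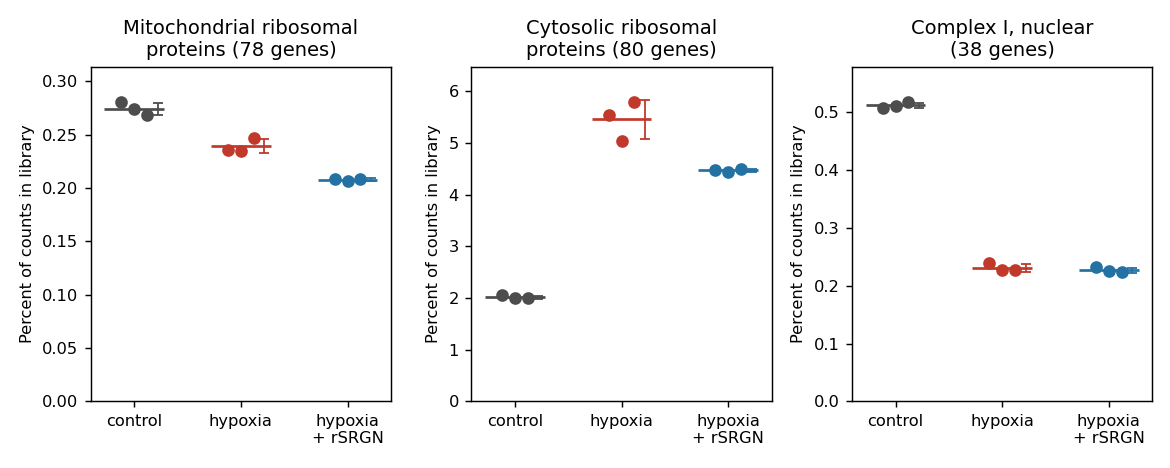
Share of each library's counts (percent, axes from 0) taken by the genes of the mitochondrial ribosome, the cytosolic ribosome and nuclear complex I; points are the 3 libraries of a group, horizontal lines their mean and bars ± 1 SD. The mitochondrial ribosome goes down in 2 steps, from 0.268–0.280% to 0.235–0.247% and 0.206–0.209%.

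Levels of single genes are given as fragments per kilobase of exon, per library total after TMM scaling (FPKM), which allows genes to be compared. Over the 9 libraries the tested members had mean levels from 2.58 to 45.8 FPKM with a median of 13.3, against a median of 3.78 over all tested genes, 220 for the cytosolic ribosomal proteins and 47.4 for nuclear complex I. The subunit proteins are present once per ribosome, with the exception of Mrpl12. The SD of the log2 transcript levels of the 77 tested members, Mrps36 among them, was 1.03 to 1.07 in every library. Protein levels were not measured here. The spread among members was thus alike in the 3 groups. Members with a bacterial counterpart had a median of 14.8 FPKM and those found in mitochondria only 9.74 FPKM.

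By the mean over the 9 libraries, the most abundant transcripts were those of Mrps21, Mrpl12 and Mrps23. The order differed by group, and Mrps21 was first in none. Mrps23 was highest in control (mean 61.8 FPKM) and Mrps6 in hypoxia (43.7 FPKM) and hypoxia + rSRGN (40.8 FPKM). Mrps21 (bS21m, a small-subunit protein) had 58.5, 53.0 and 56.9 FPKM in control, 44.8, 40.0 and 43.4 in hypoxia and 42.1, 38.1 and 35.5 in hypoxia + rSRGN. By the same mean over all libraries, the least abundant were Mrps30, Mrps10 and Mrps35. In control alone Mrps25 (mean 3.43 FPKM) was below Mrps35 (mean 3.70 FPKM). Mrps10 (uS10m, of the head of the small subunit) had 2.65, 2.77 and 2.66 FPKM in control, 2.97, 2.32 and 3.38 in hypoxia and 2.35, 2.36 and 2.60 in hypoxia + rSRGN. Its hypoxia libraries overlapped those of both other groups, and all hypoxia + rSRGN libraries were below control. Mrps35 (mS35) had 3.39, 3.88 and 3.84 FPKM in control, 2.04, 1.92 and 2.25 in hypoxia and 1.85, 2.19 and 1.87 in hypoxia + rSRGN, with both treated groups below control. At the low end Mrps10 and Mrps30 exchanged order between control and hypoxia, since Mrps30 (mL65) went from 3.31, 3.31 and 3.46 to 2.06, 2.35 and 2.62 FPKM, but the hypoxia libraries of the pair overlapped.

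**Figure D2:**
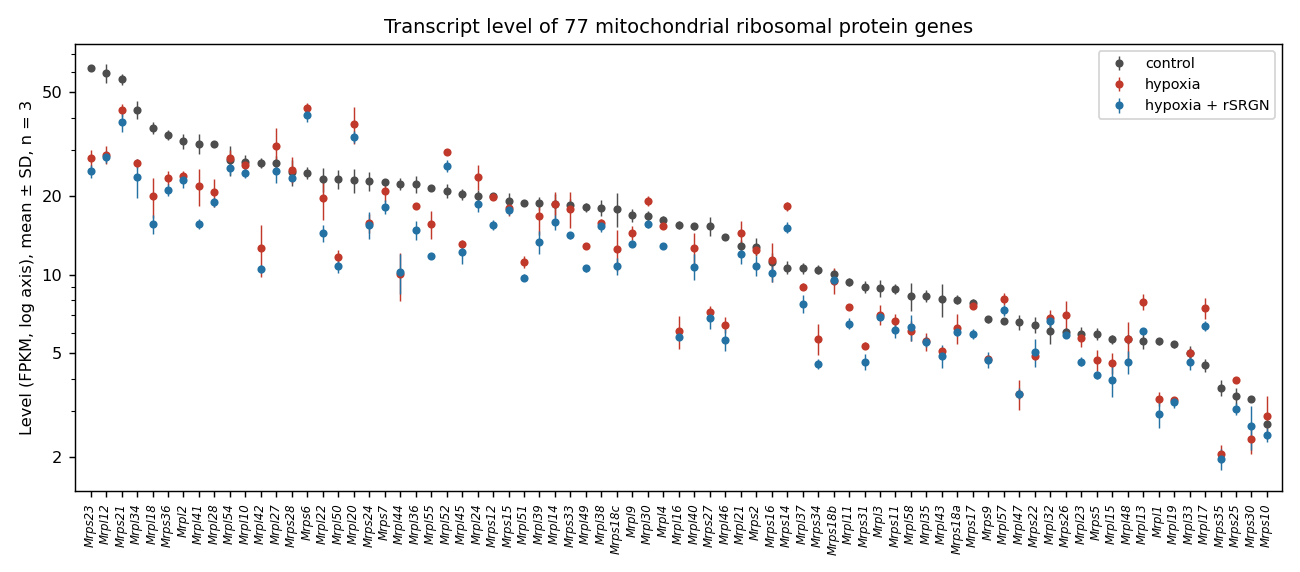
Level of the 77 tested members (FPKM, log axis) in order of the control mean; points are group means and bars ± 1 SD, n = 3 libraries. Control levels run from 61.8 FPKM for Mrps23 to 2.69 FPKM for Mrps10, and hypoxia points lie below the control points for most genes and well above them for Mrps6, Mrps14, Mrpl17 and Mrpl20.

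Mrpl53 (mL53, of the large subunit) was the only member left untested. It had 0 counts in each of the 9 libraries, a result that still allows up to 3 counts per library. Of its 790 exon bases 695 are shared with Gm42688, a gene model on the same strand that had 10 to 26 counts per library, and the counting command in the table header carried no option to count fragments that lie in more than 1 gene. The part of this overlap in the 0 was not tested.

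Hypoxia was compared with control to see how the family stood after 6 hours of hypoxia without glucose and serum. Of the 77 tested members 20 were lower and 4 were higher, and 53 did not pass both limits, a 1.5-fold change and an adjusted p under 0.05 (edgeR's quasi-likelihood test, Benjamini-Hochberg). Among all tested genes 25.1% were called lower and 26.4% higher, so the members' count of falls was near the background and their count of rises was below it. The first of these readings depended on exon length. When a trend of counts with exon length was removed in each library, 32 members were lower (41.6%) and 3 higher (3.90%), where 25.3% and 24.5% of all tested genes were. In the fit without that step, their median log2 fold change was -0.31, against 0.05 for all tested genes, and 58 of the 77 were below 0. With the adjusted p alone, 43 members were lower and 9 higher, where the background was 34.1% and 36.8%. Every hypoxia library was below every control library for 45 members and above for 11, against 35.3% and 37.7% of all tested genes.

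By subunit and origin, the calls were as follows, where 25.1% of all tested genes were lower and 26.4% higher. In the large subunit 15 of 50 tested members were lower and 2 higher, and the median was -0.31 on the log2 scale. The small subunit had 5 lower and 2 higher of 26, with a median of -0.10. Of the 30 tested members found in mitochondria only, 12 were lower and 0 higher, with a median of -0.47. Of the 46 with a bacterial counterpart 8 were lower and 4 higher, with a median of -0.17. All 4 genes that rose thus encode proteins shared with bacteria, and no test was made of these differences between classes.

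**Figure D3:**
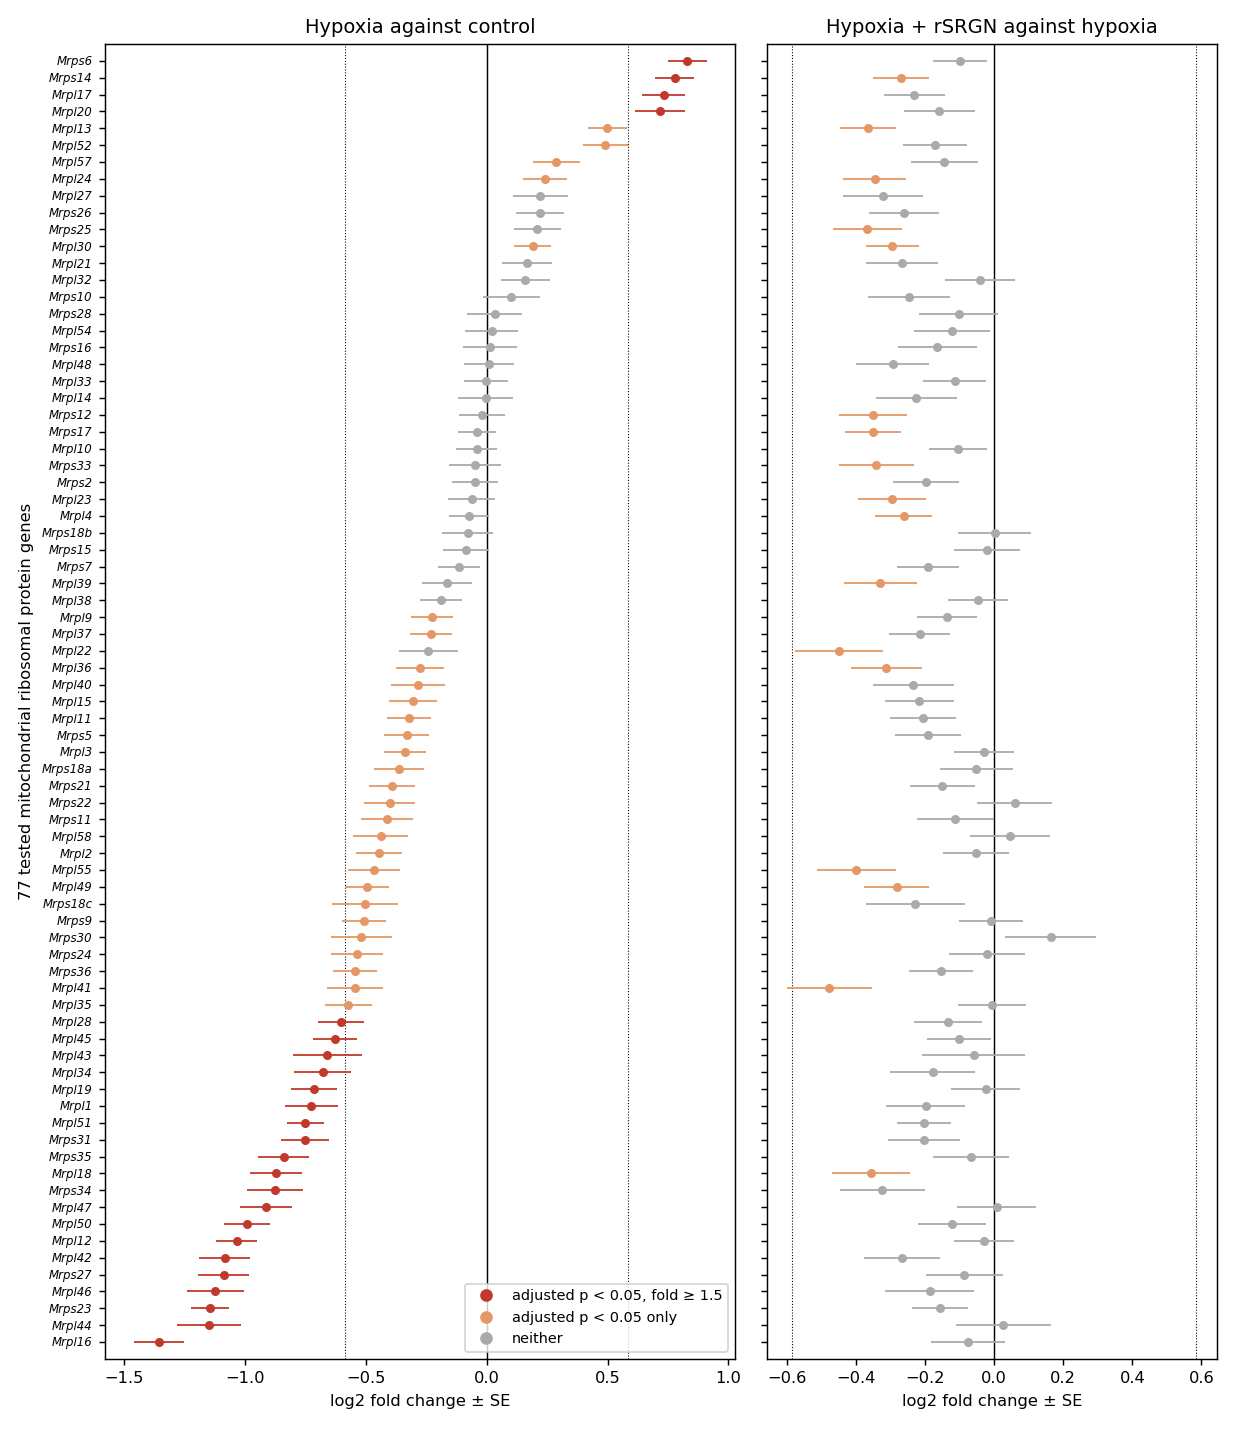
Log2 fold change of each tested member (points, bars ± 1 SE) for hypoxia against control (left) and hypoxia + rSRGN against hypoxia (right), in the order of the left panel; red marks genes past both limits (dotted lines at 1.5-fold), orange the adjusted p alone and grey neither. On the left values run from -1.36 (Mrpl16) to 0.83 (Mrps6); on the right 71 of 77 lie below 0 and 0 are red.

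Mrpl16 (uL16m), which lies next to the tRNA sites of the large subunit, had the deepest fall. It had 15.6, 14.9 and 16.1 FPKM in control and 6.10, 5.18 and 6.93 FPKM in hypoxia. The groups were far apart, and the log2 fold change was -1.36 ± 0.10 (SE, n = 3 per group, edgeR adjusted p = 8.24e-11).

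Mrps23 (mS23), with the highest mean of all members in control, had 62.4, 60.8 and 62.1 FPKM there and 26.2, 30.2 and 27.3 FPKM in hypoxia. All hypoxia libraries were far below control, and the log2 fold change was -1.15 ± 0.08 (edgeR adjusted p = 1.45e-11). Mrpl44 (mL44), a protein with an RNase III-like fold and one of the cardiomyopathy genes, had 23.6, 21.2 and 22.01 FPKM in control and 8.33, 9.45 and 12.4 FPKM in hypoxia. Its hypoxia libraries varied more among themselves than those of Mrps23 but all were below control, with a log2 fold change of -1.15 ± 0.13 (edgeR adjusted p = 8.28e-08).

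Mrpl46 (mL46) had 14.4, 13.98 and 13.7 FPKM in control and 6.11, 6.94 and 6.22 FPKM in hypoxia. Mrps27 (mS27), a pentatricopeptide repeat protein, had 14.1, 15.2 and 16.7 FPKM in control and 7.31, 7.56 and 6.75 FPKM in hypoxia. Mrpl42 (mL42) had 26.7, 25.8 and 28.2 FPKM in control and 10.5, 15.9 and 11.6 FPKM in hypoxia. In all 3 genes the groups were apart, and the log2 fold changes were -1.12 ± 0.12, -1.09 ± 0.11 and -1.08 ± 0.11 (edgeR adjusted p = 2.21e-08, 5.62e-09 and 6.15e-09). The counting ignored strand, and Mrps27 shares 24.2% of its exon bases with a transcript on the opposite strand, while Mrpl46 shares 173 bases with Mrps11, another member that starts beside it on chromosome 7.

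The genes that rose were Mrps6, Mrps14, Mrpl17 and Mrpl20. Mrps6 (bS6m, whose bacterial counterpart pairs with S18 on the platform of the small subunit) had 25.6, 25.04 and 23.1 FPKM in control and 45.5, 41.5 and 44.0 FPKM in hypoxia. All hypoxia libraries were well above control, with a log2 fold change of 0.83 ± 0.08 (edgeR adjusted p = 4.84e-09). Mrps6 shares 19.9% of its exon bases with 2 genes on the same strand, Gm49711 and Slc5a3, and Slc5a3, the myo-inositol transporter, rose by 1.09 ± 0.09 on the log2 scale.

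Mrps14 (uS14m, of the head of the small subunit) had 9.97, 11.2 and 10.9 FPKM in control and 17.5, 18.7 and 18.7 FPKM in hypoxia. Mrpl17 (bL17m) had 4.49, 4.76 and 4.26 FPKM in control and 7.51, 8.16 and 6.77 FPKM in hypoxia. Mrpl20 (bL20m, an early assembling protein in bacteria) had 24.5, 24.2 and 20.3 FPKM in control and 40.9, 30.9 and 41.6 FPKM in hypoxia. The groups were apart in all 3 genes, although hypoxia library 2 of Mrpl20 was much nearer to control than the other two. Their log2 fold changes were 0.78 ± 0.08, 0.73 ± 0.09 and 0.72 ± 0.10 (edgeR adjusted p = 2.15e-08, 1.53e-07 and 2.35e-06). When a trend of counts with exon length was removed in each library, Mrps6 and Mrpl20 no longer passed the fold limit. Their log2 fold changes were then 0.53 and 0.42. Mrpl13, with 0.50 before that step, then passed the fold limit with 0.69 (edgeR adjusted p = 1.11e-07).

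**Figure D4:**
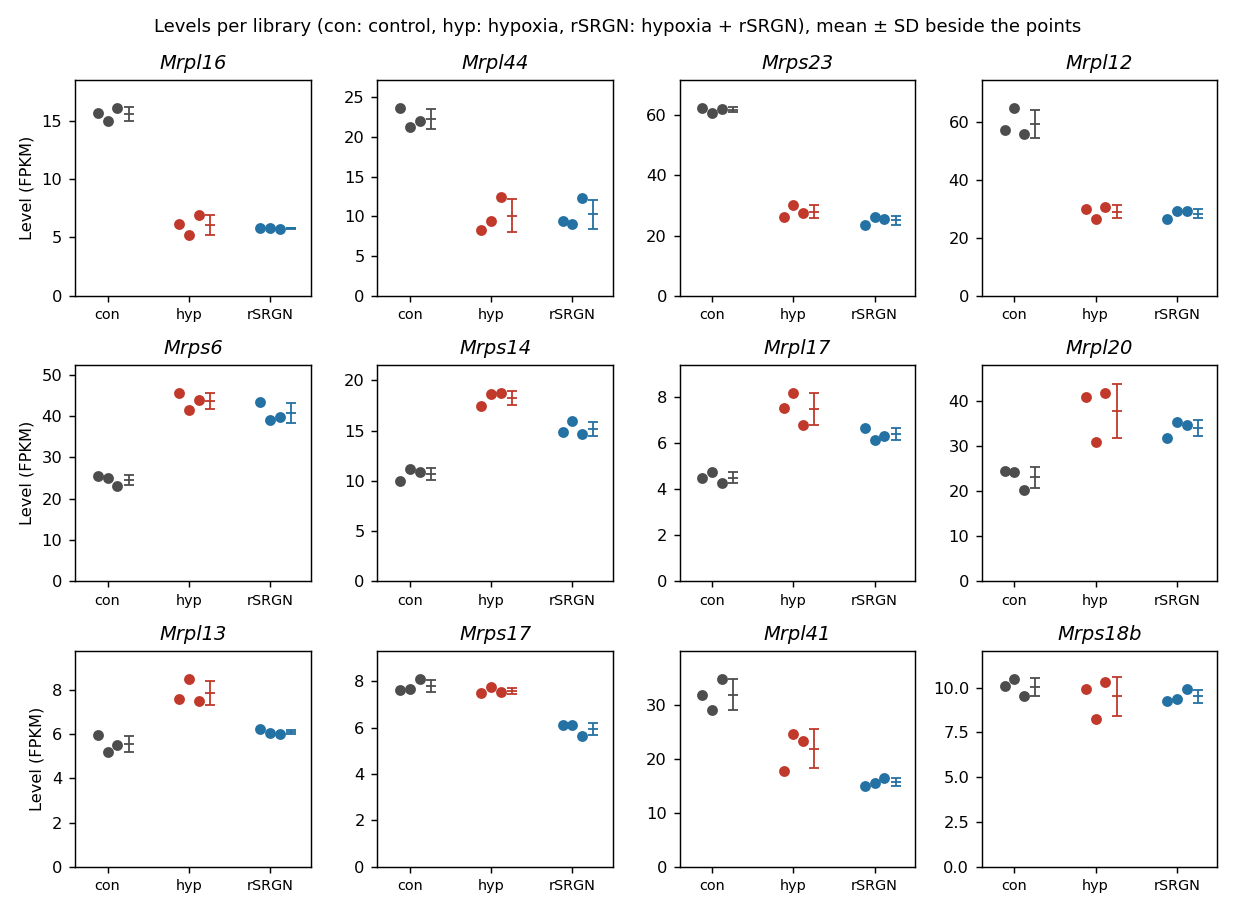
Level (FPKM, axes from 0) of 12 members in each library of control (con), hypoxia (hyp) and hypoxia + rSRGN (rSRGN), with group mean ± 1 SD beside the points. The top row shows deep falls in hypoxia, the middle row the 4 rises, and the bottom row Mrpl13, Mrps17 and Mrpl41, which had the smallest p for rSRGN, beside Mrps18b, whose groups overlapped.

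The stalk of the large subunit recruits translation factors, and of its 3 members here only Mrpl12 was called. Mrpl12 (bL12m), the stalk protein present in several copies, had 57.0, 64.8 and 55.9 FPKM in control and 29.8, 26.3 and 30.5 FPKM in hypoxia, with no overlap and a log2 fold change of -1.04 ± 0.08 (edgeR adjusted p = 2.78e-10). Mrpl10 (uL10m), on which Mrpl12 is mounted, had 25.2, 28.7 and 27.4 FPKM in control and 25.3, 27.5 and 26.04 FPKM in hypoxia. Those libraries overlapped, and the log2 fold change was -0.04 ± 0.08 (edgeR adjusted p = 0.666). With the trend of counts with exon length removed it was -0.34 (edgeR adjusted p = 0.000961), still inside the fold limit. Mrpl11 (uL11m), at the base of the stalk, had 9.03, 9.68 and 9.44 FPKM in control and 7.57, 7.34 and 7.61 FPKM in hypoxia, a difference of -0.32 ± 0.09 on the log2 scale that passed the adjusted p of 0.0037 but not the fold limit. The difference between the stalk genes was itself not tested.

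The 3 paralogs of bacterial S18 occupy different places, Mrps18c (bS18m) and Mrps18b (mS40) in the small subunit and Mrps18a (mL66) in the large one. Mrps18c had 18.7, 14.9 and 20.1 FPKM in control and 14.3, 9.99 and 13.5 FPKM in hypoxia. Mrps18b had 10.1, 10.5 and 9.53 FPKM in control and 9.93, 8.27 and 10.3 FPKM in hypoxia, with overlapping groups. Mrps18a had 7.96, 7.76 and 8.37 FPKM in control and 7.09, 6.19 and 5.45 FPKM in hypoxia, all of them below control. The log2 fold changes were -0.50 ± 0.14, -0.08 ± 0.11 and -0.36 ± 0.10 (edgeR adjusted p = 0.00253, 0.52 and 0.00351), and none of the 3 passed the fold limit. Mrps18c passed it with -0.64 without control library 2, with -0.61 without hypoxia library 1 and with -0.89 when the length trend was removed, where Mrps18b had -0.36 (edgeR adjusted p = 0.00347). Mrps18b and Mrps18c share 30.5% and 23.2% of their exon bases with an antisense gene and a gene model still awaiting experimental evidence, respectively.

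The cardiomyopathy genes Mrpl3 and Mrps22 stayed inside the fold limit, unlike Mrpl44. Mrpl3 (uL3m, close to the peptidyl transferase centre) had 9.65, 8.58 and 8.39 FPKM in control and 6.31, 7.30 and 7.46 FPKM in hypoxia, a log2 fold change of -0.34 ± 0.09 (edgeR adjusted p = 0.00142) that was -0.19 (edgeR adjusted p = 0.0497) with the length trend removed. Mrps22 (mS22) had 6.95, 6.31 and 6.04 FPKM in control and 4.75, 4.82 and 5.04 FPKM in hypoxia, a log2 fold change of -0.40 ± 0.11 (edgeR adjusted p = 0.00198). In both genes every hypoxia library was below control, and no overlap was seen. Mrps36, now known as a component of the 2-oxoglutarate dehydrogenase complex of the citric acid cycle, had 36.1, 33.3 and 33.5 FPKM in control and 24.96, 23.7 and 21.9 FPKM in hypoxia. Its log2 fold change of -0.54 ± 0.09 (edgeR adjusted p = 1.46e-05) was close to the fold limit. It passed that limit with -0.59 without control library 2 or hypoxia library 1, with -0.60 under a filter of 1 count and with -0.88 when the length trend was removed.

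Many of these genes start back to back with another gene. For 23 members a protein-coding neighbour on the opposite strand begins within 1000 bases, or overlaps by fewer than 300, and the median gap was 66 bases. Of the 23 neighbours 10 were called in hypoxia, and in 3 pairs both genes were called. Since 26.4% of all tested genes were called higher and 25.1% lower, this count is near the background and is not a result about the pairs. Mrps27 and Ptcd2, a factor of mitochondrial RNA processing, both fell, and so did Mrpl50 and Zfp189. Mrpl44 fell while its neighbour Wdfy1 rose by 0.95 ± 0.10 on the log2 scale. Mrpl49, with a log2 fold change of -0.50, stands beside Fau, which encodes a protein of the cytosolic ribosome and rose by 1.45 ± 0.08 on the log2 scale. In 7 of the 23 pairs the signs of the log2 fold changes were opposite.

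The other parts of the mitochondrial translation system were taken from lists of genes, which were chosen with earlier results of these data known. Of 5 ribosomal proteins with other symbols, Ptcd3 and Gadd45gip1 were lower in hypoxia by log2 fold changes of -0.62 ± 0.08 and -0.61 ± 0.13, and Dap3, Chchd1 and Aurkaip1 were not called. The counts of these lists stand against 25.1% of all tested genes called lower and 26.4% called higher. Of 14 translation factors 6 were lower and 0 higher, or 42.9% lower. Taco1, an activator of Cox1 translation, had -1.86 ± 0.11, the elongation factor Gfm1 had -1.33 ± 0.08 and the initiation factor Mtif3 had -1.16 ± 0.15 on the log2 scale. Of 26 ribosome assembly factors 8 were lower, a share of 30.8% that is near the background, and 0 were higher. The deepest falls were in the RNA helicase Ddx28 with -1.59 ± 0.15 and the rRNA methyltransferases Mrm1 with -1.47 ± 0.11 and Nsun4 with -1.18 ± 0.09. Of 20 genes for charging mitochondrial tRNA 9 were lower and 1 higher. Pars2 (prolyl-tRNA synthetase) had -2.00 ± 0.27, Gatb and Qrsl1 (subunits of the amidotransferase that makes glutaminyl-tRNA) had -1.66 ± 0.13 and -1.40 ± 0.11, and Lars2 (leucyl-tRNA synthetase) rose by 2.89 ± 0.15.

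The products of the mitochondrial genome split by kind. Of the 13 mitochondrial mRNAs 11 were lower and 0 higher, and the median was -1.38 on the log2 scale. The rRNAs of the mitochondrial ribosome rose instead, mt-Rnr1 (12S) by 3.81 ± 0.10 and mt-Rnr2 (16S) by 3.30 ± 0.10 on the log2 scale. Together the rRNAs took 0.195–0.239% of counts in control, 2.31–2.61% in hypoxia and 2.27–2.67% in hypoxia + rSRGN. The libraries were poly(A) selected, so these counts depend on how much of the rRNA was caught, and that part was not tested.

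Set beside other families, the mitochondrial ribosome lay between them in hypoxia. Of 78 tested cytosolic ribosomal protein genes 76 were higher and 1 lower, and the median was 1.33 on the log2 scale. The largest rises were 1.98 ± 0.19 for Rps10, 1.94 ± 0.07 for Rps28 and 1.84 ± 0.08 for Rps19, and the fall was in the muscle paralog Rpl3l. Of 38 nuclear complex I genes 33 were lower and 0 higher, with a median of -1.07, and Ndufa9, Ndufs1 and Ndufv1 had the deepest falls with -2.00 ± 0.08, -1.95 ± 0.08 and -1.89 ± 0.08.

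**Figure D5:**
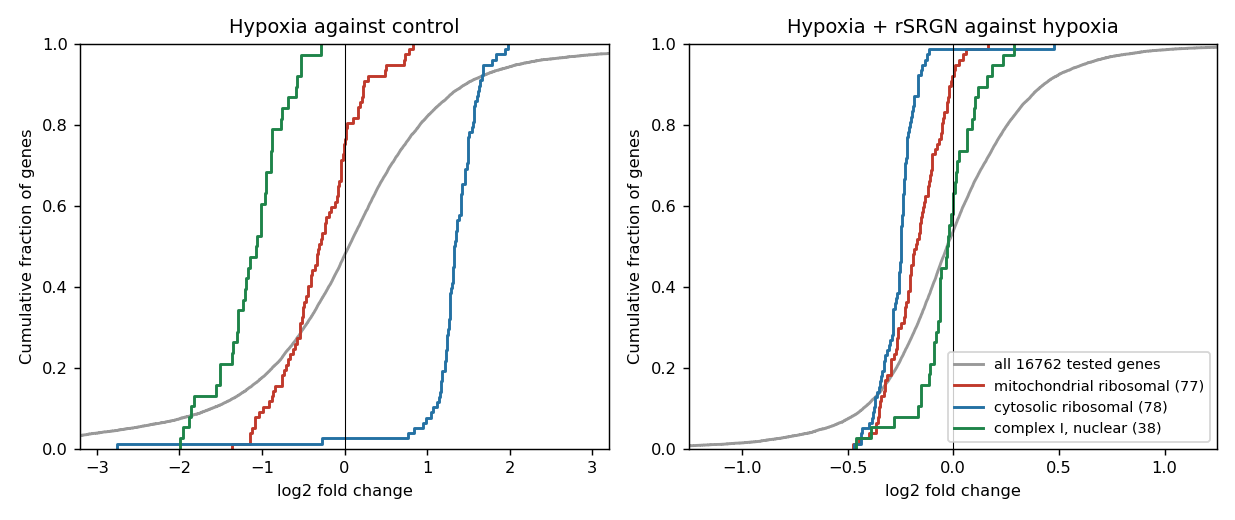
Cumulative fraction of genes against log2 fold change for all tested genes, the mitochondrial ribosome, the cytosolic ribosome and nuclear complex I, for hypoxia against control (left) and hypoxia + rSRGN against hypoxia (right); the tails of all tested genes run past the axes. On the left the medians are 0.05, -0.31, 1.33 and -1.07; on the right they are -0.03, -0.18, -0.25 and -0.03.

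Hypoxia + rSRGN was compared with hypoxia to see what the added protein changed. No member was called (0 of 77), where 0.859% of all tested genes were called lower and 2.27% higher. The differences were small and mostly of one sign, with 71 of 77 members below 0 and a median log2 fold change of -0.18, against -0.03 for all tested genes. At an unadjusted p below 0.05, 30 members were lower and 0 higher, where the background was 13.5% and 15.9%. With the adjusted p alone, 17 members were lower and 0 higher by edgeR, against 6.11% and 10.5% of all tested genes, and 14 and 0 by DESeq2, against 4.99% and 12.6%. Every hypoxia + rSRGN library was below every hypoxia library for 32 members and above for 0, against 15.5% and 16.5% of all tested genes.

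Among all tested genes this difference moved with exon length, while across the members it was alike in short and long genes. The bins below were set to hold like numbers of members. Among all tested genes the median log2 fold change was -0.17 for those with exons up to 1676 bases, -0.12 for those up to 3318 bases and 0.04 for longer ones. The members in these bins had medians of -0.16, -0.19 and -0.19, and their median exon length was 2533 bases against 3961 for all tested genes. With the length trend of each library removed, the members' median was -0.03 against 0.01 for all tested genes, and 46 of 77 were below 0. By adjusted p alone 6 members (7.79%) were then lower and 0 higher, where 503 of the 16762 tested genes (3%) were lower and 8.13% higher. In the fit with no length trend removed, the median for cytosolic ribosomal protein genes (median exon length 1776 bases) was -0.25 on the log2 scale. By adjusted p alone 52 of those 78 genes were lower and 0 higher in that fit, against 6.11% and 10.5% of all tested genes. Nuclear complex I genes, with a median exon length of 1438 bases, had a median log2 fold change of -0.03 in the same fit. The part of exon length in these differences was not tested.

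The members with the smallest p were Mrpl13, Mrps17 and Mrpl41. Mrpl13 (uL13m) had 7.58, 8.50 and 7.51 FPKM in hypoxia and 6.22, 6.08 and 6.03 FPKM in hypoxia + rSRGN, where control had 5.96, 5.21 and 5.52. The groups with and without rSRGN did not overlap, and the log2 fold change was -0.36 ± 0.08 (edgeR adjusted p = 0.00422). Mrps17 (uS17m) had 7.50, 7.73 and 7.53 FPKM in hypoxia and 6.10, 6.10 and 5.65 FPKM in hypoxia + rSRGN, where control had 7.63, 7.67 and 8.09. Control and hypoxia overlapped while hypoxia + rSRGN was below both, with a log2 fold change from hypoxia of -0.35 ± 0.08 (edgeR adjusted p = 0.00478).

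Mrpl41 (mL41) had 17.8, 24.5 and 23.3 FPKM in hypoxia and 15.03, 15.6 and 16.4 FPKM in hypoxia + rSRGN, where control had 31.8, 29.0 and 34.7. The 3 groups were in falling order with no overlap, and hypoxia library 1 was nearer to the rSRGN libraries than to the other hypoxia libraries. The log2 fold change for rSRGN was -0.48 ± 0.12 (edgeR adjusted p = 0.0103), and with the length trend removed it was -0.28 and missed the adjusted p (0.144). Without hypoxia library 1 it was -0.61 and passed the fold limit, which made Mrpl41 the single member called in any fit that left out a library. Of the other mitochondrial translation genes on the lists, 1 nuclear gene was called with rSRGN, Mtfmt, the methionyl-tRNA formyltransferase, with a log2 fold change of -0.66. Of the 13 mitochondrial mRNAs 2 were called lower and 0 higher, against 0.859% and 2.27% of all tested genes. They were mt-Co2 with -0.87 ± 0.22 and mt-Atp8 with -2.77 ± 0.78 (edgeR adjusted p = 0.0101 and 0.0177).

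Several of the genes named above for hypoxia against control had these levels with rSRGN. Mrpl16 had 5.79, 5.78 and 5.72 FPKM, inside the range of the hypoxia libraries, and a log2 fold change of -0.08 ± 0.11 from hypoxia. Mrps23 had 23.4, 26.1 and 25.5 FPKM, the highest of them just under the lowest hypoxia library. Mrpl44 had 9.39, 8.997 and 12.3 FPKM and Mrpl12 26.5, 29.4 and 29.0 FPKM, and both overlapped their hypoxia libraries. Mrps6 had 43.6, 39.2 and 39.7 FPKM and overlapped hypoxia as well. Mrps14 had 14.8, 15.99 and 14.7 FPKM, all below hypoxia, with a log2 fold change of -0.27 ± 0.08 (edgeR adjusted p = 0.0269). Mrps14 no longer passed the adjusted p limit with the length trend removed, with -0.17 (edgeR adjusted p = 0.201). It also missed the limit without hypoxia library 3 or any 1 of the hypoxia + rSRGN libraries (edgeR adjusted p = 0.0509 to 0.112). The same held under a filter of 1 count and in a fit of only the groups compared (edgeR adjusted p = 0.0645 and 0.0524). Mrpl17 had 6.67, 6.15 and 6.32 FPKM, also below hypoxia, with -0.23 ± 0.09 (edgeR adjusted p = 0.0754), and -0.31 (edgeR adjusted p = 0.0203) with the length trend removed. Mrpl20 and Mrpl42 had -0.16 ± 0.10 and -0.27 ± 0.11 (edgeR adjusted p = 0.326 and 0.103). Mrpl20 had -0.28 without hypoxia library 2 and Mrpl42 -0.38 without hypoxia library 1 (edgeR adjusted p = 0.027 and 0.0155). Of the 20 cardiomyocyte markers 17 were called higher with rSRGN than in hypoxia and 0 lower, against 2.27% and 0.859% of all tested genes.

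Hypoxia + rSRGN was also compared with control, which shares libraries with both comparisons above. Of 77 members 27 were lower and 1, Mrps6, was higher, where 24.7% of all tested genes were called lower and 24.1% higher. The median log2 fold change was -0.45, against 0.01 for all tested genes. In the large subunit 20 of 50 were lower and 0 higher, and in the small subunit 6 of 26 were lower and 1 higher. The largest falls were -1.43 ± 0.10 for Mrpl16, -1.35 ± 0.11 for Mrpl42, -1.31 ± 0.12 for Mrpl46 and -1.30 ± 0.08 for Mrps23. Mrps6 had a log2 fold change of 0.73 ± 0.08 (edgeR adjusted p = 4.1e-08), and Mrps14, Mrpl17 and Mrpl20 had 0.51, 0.50 and 0.56, inside the fold limit. Mrpl20 passed it without control library 1 or 2 or without hypoxia + rSRGN library 1, with 0.59 to 0.60. It also passed the limit with library size alone, with 0.60, and Mrpl17 did so with 0.60 when the length trend was removed.

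Mrpl18 and Mrps34 completed the 6 deepest falls from control. Mrpl18 (uL18m) had 38.1, 34.5 and 37.3 FPKM in control, 17.7, 24.0 and 18.4 in hypoxia and 16.3, 14.2 and 16.5 in hypoxia + rSRGN, in that order without overlap. Mrps34 (mS34) had 10.6, 10.8 and 10.0 FPKM in control, 5.18, 6.58 and 5.33 in hypoxia and 4.73, 4.60 and 4.32 in hypoxia + rSRGN, also without overlap. From hypoxia to hypoxia + rSRGN the log2 fold changes of Mrpl18 and Mrps34 were -0.36 ± 0.11 and -0.32 ± 0.12 (edgeR adjusted p = 0.0343 and 0.08). The first missed the adjusted p limit in several other fits, such as without hypoxia library 2 (edgeR adjusted p = 0.182) and with the length trend removed (edgeR adjusted p = 0.357). The log2 fold changes of hypoxia + rSRGN from control were -1.23 ± 0.11 and -1.20 ± 0.12 (edgeR adjusted p = 1.6e-09 and 7.03e-09). Mrps34 shares 77.8% of its exon bases with Mapk8ip3 and Nme3, so few of its bases are its own. Mrps18c and Mrps36, which had stayed inside the fold limit in hypoxia alone, passed it here with -0.73 ± 0.14 and -0.70 ± 0.09.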

How the data were processed

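Poly(A)-enriched RNA of 9 NMVM libraries, 3 per group, was sequenced on an Illumina NovaSeq. Per the labels and the table header, the authors aligned reads with HISAT2 to mm10 and deposited raw counts per gene from featureCounts 2.0.1 (paired-end, exons, GENCODE vM25, no strand option, no normalization). All 9 count columns were used, and groups came from the sample labels. With edgeR 4.0.16 in R 4.3.3, low counts were removed by filterByExpr, TMM scaling was applied, all 9 libraries entered a single fit of 3 group means, and groups were compared by the quasi-likelihood F-test with Benjamini-Hochberg adjustment over 16762 genes. Calls required a 1.5-fold change or more and an adjusted p under 0.05, and SE is the log2 fold change over the root of F. The step was tested on simulated data. FPKM was computed here from counts and deposited exon lengths. Precision rests on 3 libraries per group and totals of 16583985 to 22781557 counts, and the limit for a count of 0 covers counting error only. Alternatives included DESeq2 1.42.0, scalings, filters, length and leaving out libraries.

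Named members were fixed lists (S18 paralogs, stalk, cardiomyopathy genes, Mrps36), the up to 6 deepest falls and rises called per comparison, the 3 smallest p where fewer than 3 were called, and the 3 highest and lowest levels. Members named for shared exons, neighbours or promoters were chosen after their values were seen. Members and lists were chosen with earlier results of these data known. The 6 pseudogenes that bear these names were left out.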

Additional observations from a re-analysis of the deposited data

How the results depend on the processing

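No count, median or called value changed sign. The members called numbered 52, 17 and 59 with no fold limit, where the report has 24 (hypoxia against control), 0 (rSRGN against hypoxia) and 28 (rSRGN against control). Leaving out each library in turn gave 24 to 27, 0 to 1 and 27 to 32, and medians of -0.35 to -0.27, -0.19 to -0.15 and -0.47 to -0.44. Among the 46 members without exon bases shared with another gene, a choice made after seeing the data, 14, 0 and 15 were called, from fewer genes, with medians of -0.30, -0.17 and -0.50. The median for hypoxia against control was -0.33 with DESeq2 and with RLE scaling, -0.24 with library size alone (all tested genes 0.12 in place of 0.05), -0.36 with a filter of 1 count and -0.45 with the gene length offset. For hypoxia + rSRGN against hypoxia it was -0.15 with DESeq2 and RLE scaling and -0.035 with the length offset. For hypoxia + rSRGN against control it was -0.40 with library size alone and -0.49 with the 1-count filter. The length offset called 35 members in hypoxia, 32 of them lower. The cause of these shifts was not tested. With Mrps36 left out and the 5 subunits of other symbols added, the summed shares were 0.291%, 0.257% and 0.223%. The replicate numbers are not stated to pair cultures. Same-numbered libraries had correlations of -0.037 to 0.021 in their deviations from the group means, which cannot show whether the cultures were paired. The replicate block called 24, 0 and 28 members, with medians of -0.31, -0.18 and -0.45. Of the values for single named genes, 1683 kept their sign and their call, 49 gained a call and 2 lost it. Of the 1683, 30 crossed the adjusted p limit without a change of call, 11 of them to pass it and 19 to miss it. The other 30, for 18 pairs of gene and comparison, changed sign with no call before or after, and the lowest adjusted p among them was 0.28. For hypoxia against control, Mrpl10 and Mrps17 had 0.027 and 0.030 with library size alone, and Mrps17 had 0.094 with the length offset. Leaving out single libraries gave -0.14 to 0.011 for Mrps18b and -0.025 to 0.23 for Mrps10. For hypoxia + rSRGN against hypoxia, the length offset gave 0.064 for Mrpl10, 0.14 for Mrpl12, 0.033 for Mrpl16, 0.012 for Mrpl20, 0.074 for Mrps6, 0.023 for Mrps18a, 0.048 for Mrps21, 0.016 for Mrps23, 0.076 for Mrps27 and 0.027 for Mrps36. Mrpl3 had 0.00077 with DESeq2 and 0.00075 with RLE scaling, and Mrps18b had -0.022 with library size alone. Leaving out single libraries gave -0.14 to 0.052 for Mrps18a, -0.087 to 0.066 for Mrps18b, -0.090 to 0.017 for Mrpl12, -0.099 to 0.019 for Mrpl3, -0.12 to 0.21 for Mrpl44, -0.0497 to 0.12 for Mrps22 and -0.17 to 0.031 for Mrpl16.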
